A study of Mus musculus with 4 samples.

Results

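The genes described here are 9 genes of apoptosis and of the inflammatory caspases, out of 32285 genes in the count tables: Casp1, Casp4, Casp8, Bcl2, Bcl2l1, Mcl1, Bax, Bbc3 and Parp1. They were found by their symbols in the gene lists of the deposited matrices, and each symbol matched a single gene. Each gene was followed across the cell types of mouse ascites, by its unique molecular identifiers (UMIs, each standing for a captured mRNA molecule). Levels are given as CPM, the UMIs of the gene out of 1000000 UMIs of all cells of that type in that library.

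Apoptosis in mammalian cells runs through 2 connected routes. In the mitochondrial route, BCL2, BCL-XL and MCL1 keep BAX and its relative BAK from opening the outer mitochondrial membrane, and BH3-only proteins such as PUMA release that restraint. In the death receptor route, caspase-8 is activated at the receptor and cuts the executioner caspases, which then cleave many proteins, PARP1 among them. Caspase-1 and caspase-11, the latter encoded in the mouse by Casp4, serve a different end: they drive the release of interleukin-1 family cytokines and the lytic death called pyroptosis, most prominently in macrophages. The libraries count mRNA, and they hold no measure of protein, caspase cleavage or dying cells.

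The study asked how silencing Fxr1, which encodes an RNA-binding protein, with a locked nucleic acid (LNA)-modified siRNA acts on tumor cells and on the cells around them. Female FVB mice, which have an intact immune system, carried Br-Luc cells in the peritoneal cavity, a mouse ovarian cancer line whose genotype is given as p53-/-, brca1-/-, myc and Akt-myr. They received a control siRNA (siCont in the labels, siCont-LNA in the study) or siFXR1-LNA, both LNA-modified and packed in jetPEI nanoparticles. Ascites was taken 6 weeks after the tumor cells were injected. There were 2 single-cell libraries a group, and ascites of several mice was pooled, so a library is not an animal. All groups shared the tumor line, the strain and the carrier, and red blood cells were lysed before loading.

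The 4 libraries differed in makeup more than the names of the groups alone would tell. They held 17309 to 54665 barcodes and 78179267 to 113606837 UMIs, and any pair of libraries shared between 3.45% and 7.88% of the barcodes of the smaller one. Erythrocytes made up 61.0% and 62.9% of the cells kept in the siCont libraries and 0.0405% and 0.373% in those labelled siFXR1-LNA. A shallow cluster that the naming rules left unnamed took 75.5% of the cells of siFXR1-LNA replicate 1, 32.2% of replicate 2 and 0.157% and 0.211% in siCont. It raised 3 of the 6 epithelial markers and 2 of the 5 mesothelial markers, and its cells are not among the epithelial cells below. The gene the siRNA targets did not test lower in the libraries labelled siFXR1-LNA: Fxr1 stood at 109.1 and 124.9 CPM in the epithelial cells of siCont and at 139.9 and 138.6 in the others, and at 64.3 and 58.8 against 72.9 and 68.5 in macrophages. None of the 7 types in which Fxr1 was tested gave an adjusted p under 0.05 for it, so the groups are called by their labels throughout. The study's methods say that a siFXR1-LNA replicate was left out there without saying which, and results are therefore also given without each of these libraries.

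Levels below come from the 8 named cell types with at least 10 cells in every library, apart from erythrocytes, which had 22151 and 15801 cells in siCont but 22 and 63 in siFXR1-LNA and were left untested for that reason. Macrophages numbered 2521 to 5260 cells a library, granulocytes 436 to 5470, T cells 1070 to 2418, B cells 651 to 3631 and epithelial cells 122 to 1478. Dendritic cells (DCs) numbered 86 to 933, mature migratory DCs 68 to 386 and mast cells at least 66. The cluster named epithelial raised 3 of the 6 epithelial markers and 4 of the 5 mesothelial markers, such as Wt1, which many ovarian tumors also express. Summed counts cannot tell a gene that is lower in each cell from a type that has come to hold fewer of the cells expressing it.

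The upstream DNA of the 4 genes that passed the test in macrophages is shown first, since these are the members that moved in more than 1 direction in a single cell type. Each line gives the 250 bases before the transcription start in RefSeq on GRCm38.p6, read in the direction of the gene. Capitals mark the GC box (GGGCGG, or CCGCCC on the other strand) and the E-box (CACGTG, the same on both strands).
Casp8, chr1:58802252-58802501, plus strand: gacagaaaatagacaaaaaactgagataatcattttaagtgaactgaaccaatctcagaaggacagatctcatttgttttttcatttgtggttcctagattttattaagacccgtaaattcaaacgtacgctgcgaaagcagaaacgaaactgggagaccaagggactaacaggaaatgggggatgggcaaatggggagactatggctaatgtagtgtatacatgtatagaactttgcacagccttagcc
Parp1, chr1:180568641-180568890, plus strand: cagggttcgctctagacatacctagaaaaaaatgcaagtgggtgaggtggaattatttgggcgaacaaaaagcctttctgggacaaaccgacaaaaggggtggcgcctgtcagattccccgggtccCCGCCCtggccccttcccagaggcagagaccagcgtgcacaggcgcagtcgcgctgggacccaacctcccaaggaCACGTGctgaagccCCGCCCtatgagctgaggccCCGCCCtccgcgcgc
Bcl2, chr1:106714291-106714540, minus strand: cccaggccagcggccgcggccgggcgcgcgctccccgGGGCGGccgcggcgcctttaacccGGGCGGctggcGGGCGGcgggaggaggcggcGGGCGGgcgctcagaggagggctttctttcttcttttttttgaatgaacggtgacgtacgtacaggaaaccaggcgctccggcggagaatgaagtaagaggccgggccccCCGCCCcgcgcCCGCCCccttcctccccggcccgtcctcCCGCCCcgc
Mcl1, chr3:95658471-95658720, plus strand: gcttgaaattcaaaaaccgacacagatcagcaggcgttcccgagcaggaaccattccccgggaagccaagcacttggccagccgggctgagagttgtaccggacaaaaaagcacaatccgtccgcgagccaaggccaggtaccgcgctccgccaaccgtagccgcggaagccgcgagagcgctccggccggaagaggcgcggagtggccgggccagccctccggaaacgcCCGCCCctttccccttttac

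The windows differ widely in composition. The Bcl2 window is 74.8% G and C and holds 7 GC boxes, 4 of them on the strand shown. The Parp1 window is 61.6% G and C, with 3 GC boxes and 1 E-box, and the Mcl1 window is 64.4% G and C with 1 GC box. The Casp8 window is 39.6% G and C, holds none of the motifs searched and lies inside the gene's annotated span without touching an annotated exon. Of 32851 such windows in the table, 32.74% hold a GC box and 6.02% an E-box, and the median G and C content is 52.4%. The other motifs searched on both strands, the cyclic AMP response element TGACGTCA (1.55% of windows), the STAT element TTCNNNGAA (7.02%), the interferon-stimulated response core GAAANNGAA (7.13%) and the p53 half-site (7.13%), were in none of the 4 windows. A p53 half-site was found in the window of Bax, and an absent match says only that these letters are not in this stretch.

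Of the 9 genes Bcl2 was spread most unevenly over the 8 cell types, with a highest mean 41.2 times the lowest, and Casp1 came next at 8.92 times, before Mcl1 at 7.75 and Bcl2l1 at 6.02. The lowest mean of Casp1 is that of mast cells, which rests on 1 UMI in each group. Bcl2 (ENSMUSG00000057329, GRCm38 chr1:106538178-106714274, minus strand), the founding survival gene of the family, was highest in T cells, at 381.0 and 939.5 CPM in siCont and 774.7 and 701.0 in siFXR1-LNA. Every T cell library lay above every library of the next type, epithelial cells, whose mean was 210.9 ± 64.8 (SD, n = 4 libraries). The mean in mast cells was 209.9 ± 123.4 and in B cells 165.6 ± 30.8, and these 3 types overlapped. The B cell libraries all lay above those of macrophages (34.1 ± 17.7), DCs (23.1 ± 8.78), mature migratory DCs (20.03 ± 13.7) and granulocytes (17.0 ± 5.27). Within T cells, a subcluster led by Btbd11 and Themis reached 1176.4 to 2425.8 CPM, against 40.5 to 308.8 in the 3 libraries with more than 4 cells of a subcluster whose leading genes include Tcrg-V6 and Trdc, gamma delta T cell receptor genes.

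Mcl1 (ENSMUSG00000038612, chr3:95658788-95663176, plus strand), a short-lived survival protein that many myeloid cells depend on, was led by another type. It was highest in granulocytes, from 478.7 to 792.8 CPM, and its mean fell through macrophages (457.3 ± 123.8), DCs (403.8 ± 29.6), mature migratory DCs (401.8 ± 83.7), B cells (318.6 ± 61.1) and T cells (210.3 ± 39.0) to epithelial cells (131.2 ± 10.2, SD, n = 4 libraries) and mast cells (83.1 ± 55.7, on 30 UMIs). Adjacent types in this order overlapped, apart from T cells and epithelial cells, where every T cell library was higher. Bcl2l1 (ENSMUSG00000007659, chr2:152780668-152831728, minus strand), which encodes BCL-XL, led in epithelial cells at 141.9 ± 20.6 and in granulocytes at 119.0 ± 41.5. It was lowest in DCs at 23.6 ± 10.7, and all 7 pairs of neighbouring types overlapped.

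The death effectors and Parp1 were spread more evenly than these, with ratios of the highest to the lowest mean of 3.27 for Bax, 3.90 for Bbc3 and 3.62 for Parp1. The lowest mean of Bbc3 is that of mast cells, on 3 UMIs in siCont and 0 in siFXR1-LNA. Bax (ENSMUSG00000003873, chr7:45461697-45466898, minus strand), the pore-forming effector of the mitochondrial route, was highest in macrophages at 191.8 ± 38.8, mature migratory DCs at 180.1 ± 29.6 and DCs at 157.7 ± 28.4. Each library of these 3 myeloid types was above each library of T cells (100.2 ± 5.86), B cells (99.2 ± 5.06) and epithelial cells (65.5 ± 10.7). Bbc3 (ENSMUSG00000002083, chr7:16308393-16318205, plus strand), which encodes the p53-induced BH3-only protein PUMA, was low everywhere, with means from 27.2 ± 8.78 in mature migratory DCs to 7.88 ± 3.52 in B cells among the types other than mast cells. Parp1 (ENSMUSG00000026496, chr1:180568924-180601254, plus strand), a DNA break sensor and a classic substrate of executioner caspases, was highest in B cells at 98.6 ± 26.9, where siFXR1-LNA replicate 1 stood at 59.0 and the other libraries at 105.1 to 116.2.

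Of the caspases, Casp1 (ENSMUSG00000025888, chr9:5298517-5307265, plus strand), the protease of inflammasomes, was highest in macrophages at 45.3 ± 21.1 and at 5.94 ± 4.31 in epithelial cells. The spread of Casp1 came in part from 1 library: siFXR1-LNA replicate 1 had the lowest value of the 4 libraries in macrophages (19.4), DCs (18.1), mature migratory DCs (29.8), granulocytes (7.08), T cells (6.61), B cells (10.1) and epithelial cells (1.80). Casp4 (ENSMUSG00000033538, chr9:5308828-5336783, plus strand), which lies next to Casp1 and encodes the sensor of intracellular lipopolysaccharide, was highest in granulocytes at 40.4 ± 15.3. It was low in DCs, at 12.2 ± 4.60, where all libraries were below those of macrophages at 22.7 ± 3.43. Casp8 (ENSMUSG00000026029, chr1:58795374-58847503, plus strand) was highest in macrophages at 93.4 ± 36.6 and lowest in granulocytes at 39.5 ± 4.45, with every pair of neighbours overlapping. These orders are descriptions, without a test, because the types were made by clustering the same cells.

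**Figure D1:**
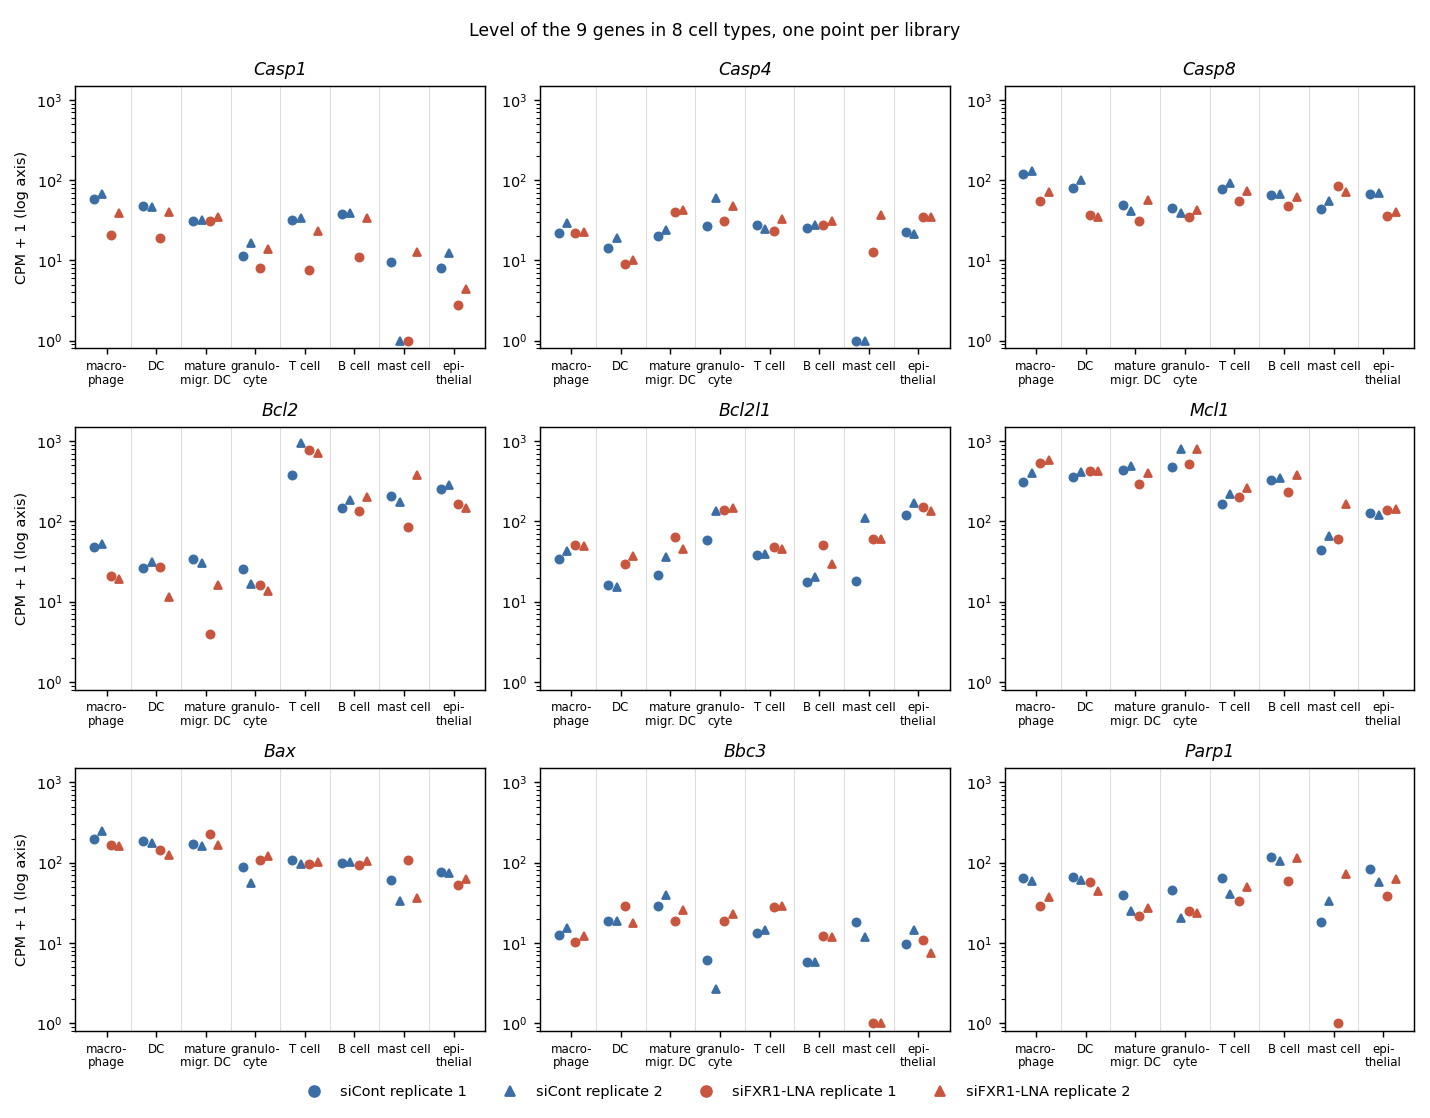
Each panel plots 1 gene, with its level on a log axis (CPM plus 1) against 8 cell types, and each point is a library (blue siCont, red siFXR1-LNA, circles replicate 1, triangles replicate 2). Bcl2 peaks in T cells (381.0 to 939.5) while Mcl1 peaks in granulocytes (478.7 to 792.8). In macrophages the red points lie below the blue for Casp8, Bcl2 and Parp1 and above them for Mcl1.

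Hemoglobin UMIs, from genes that erythroid cells express, moved with the groups in every type and enter the denominator of these levels. They took 5.86% to 8.13% of macrophage UMIs in siCont and 1.28% to 2.95% in siFXR1-LNA. In granulocytes the same shares were 24.5% against 4.34% to 8.45%, and in T cells 18.0% to 21.3% against 3.67% to 7.44%. Leaving them out raised the levels by 1.02 to 1.45 times, and the tests below use a scaling (TMM) that does not rest on the total alone.

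Macrophages had the most calls among the 9 genes, and also the highest share of all genes called. Casp8, Bcl2 and Parp1 fell and Mcl1 rose in the libraries labelled siFXR1-LNA, so 4 of 9 passed edgeR's quasi-likelihood test at a Benjamini-Hochberg adjusted p of 0.05, against 18.9% of the 14710 genes tested in this type (9.23% higher, 9.63% lower). The median log2 fold change of the 9 was -0.25, against 0.0013 over all genes tested, and was further from 0 in DCs (-0.50), epithelial cells (-0.37) and granulocytes (-0.35). With total UMIs in place of the TMM scaling the median over all genes was -0.20 and 28.8% of the calls were higher instead of 48.9%. The log2 fold change was then -1.39 for Bcl2, -0.99 for Casp8 and -0.91 for Parp1, which passed, and 0.64 for Mcl1, which did not. The 2 groups did not overlap for 8 of the 9 genes, 6 of them lower and 2 higher in siFXR1-LNA, against 70.4% of all genes tested in macrophages.

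Among the survival genes of macrophages, Bcl2 stood at 47.5 and 51.1 CPM in siCont and at 19.7 and 17.9 in siFXR1-LNA. Both siFXR1-LNA libraries were thus well under both siCont libraries, a log2 fold change of -1.19 ± 0.13 (SE; edgeR adjusted p 0.0091). Mcl1 went the other way, from 309.5 and 404.3 to 533.1 and 582.2, a log2 fold change of 0.84 ± 0.20 with an edgeR adjusted p of 0.0431. This was the call nearest the threshold, and with total UMIs in place of TMM scaling its edgeR adjusted p was 0.0598. For Bcl2l1 the values were 33.4 and 42.4 in siCont and 50.5 and 48.1 in siFXR1-LNA, without overlap but with an edgeR adjusted p of 0.0665 (log2 fold change 0.58 ± 0.16).

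The initiator caspase of the death receptor route was lower in the same cells. Casp8 measured 119.9 and 128.8 CPM in siCont and 53.7 and 71.1 in siFXR1-LNA, a log2 fold change of -0.79 ± 0.16 with an edgeR adjusted p of 0.0327. Parp1 measured 64.2 and 57.9 in siCont and 28.1 and 36.6 in siFXR1-LNA, a log2 fold change of -0.71 ± 0.15 with an edgeR adjusted p of 0.0350. Neither gene overlapped between the groups.

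The remaining members did not pass edgeR's test in macrophages. DESeq2, which called 23.7% of genes there, also called Casp1 (adjusted p 0.0254) and Bcl2l1 (adjusted p 0.0320). Casp1 was at 57.9 and 66.4 in siCont and 19.4 and 37.6 in siFXR1-LNA, and its log2 fold change of -0.92 ± 0.31 had an edgeR adjusted p of 0.1003. Its siFXR1-LNA libraries lay further apart than those of Bcl2, and its log2 fold change was smaller in size than the -1.19 of Bcl2. Which of these kept Casp1 from passing was not tested. Bax was at 198.7 and 243.8 against 165.0 and 159.5 (log2 fold change -0.25 ± 0.16). Casp4, at 20.8 and 27.8 against 20.7 and 21.4, and Bbc3, at 11.6 and 14.4 against 9.32 and 11.3, had log2 fold changes of -0.01 ± 0.18 and -0.13 ± 0.20.

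**Figure D2:**
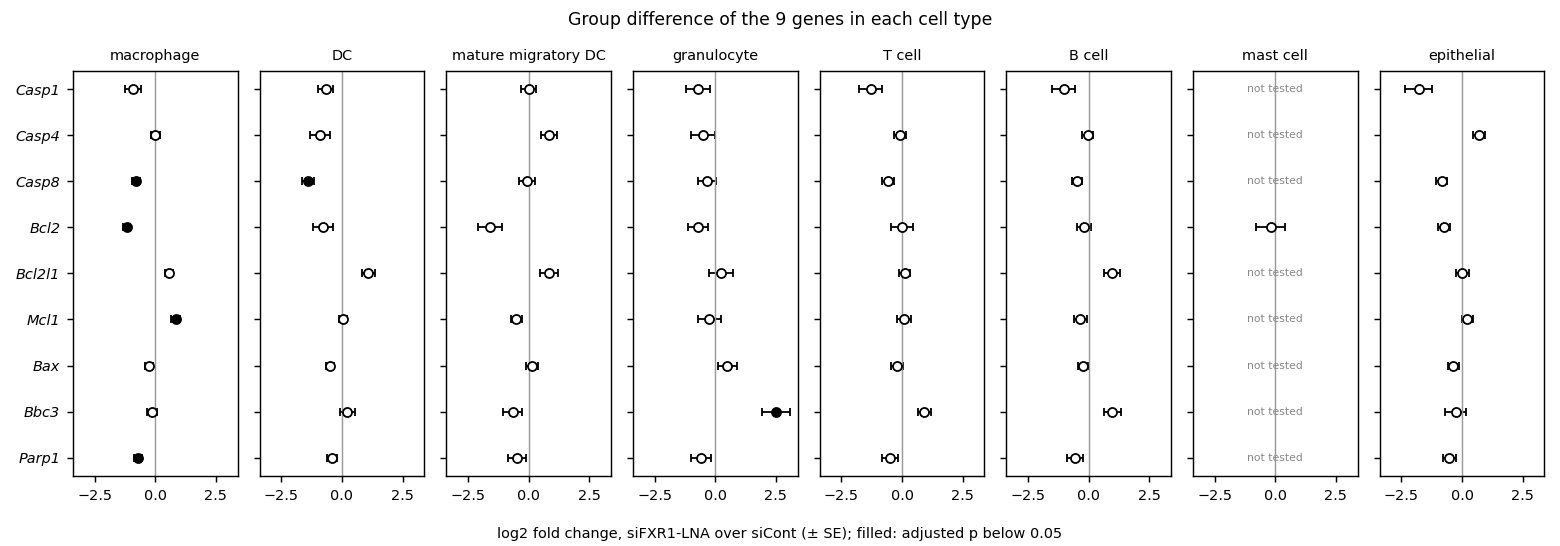
Each panel is a cell type, with the log2 fold change of siFXR1-LNA over siCont on the horizontal axis and bars of ± 1 SE, and filled points mark an edgeR adjusted p below 0.05. Filled points are Casp8, Bcl2, Mcl1 and Parp1 in macrophages, Casp8 in DCs and Bbc3 in granulocytes, and mast cells had enough UMIs only for Bcl2.

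The number of macrophage calls, of the members and of all genes, changed with the libraries used. Without siFXR1-LNA replicate 1 only 9 of all genes passed edgeR's test (0.058%) and without replicate 2 474 (3.11%), and none of the 9 members was among them, while the log2 fold change of Bcl2 remained at -1.24 and -1.10 and that of Casp8 at -0.58 and -0.98. Without siCont replicate 1, Casp8 and Bcl2 passed beside 14.2% of all genes, and without siCont replicate 2, Bcl2, Bcl2l1 and Mcl1 did beside 9.62%.

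Genes of other cell types moved with the groups in these macrophages as well. The 6 B cell markers, at 238.1 and 194.4 CPM together in siCont and 24.2 and 43.0 in siFXR1-LNA, were all lower by edgeR's test. Of the 7 T cell markers 3 were lower (46.4 and 55.6 against 7.50 and 14.3 together), of 8 DC markers 7 were lower, of 7 mast cell markers 6 were lower (613.1 and 190.8 against 38.0 and 40.4) and of 7 granulocyte markers 2 were higher (98.2 and 507.8 against 1122.3 and 1327.5). The mean of Bcl2 is higher in T, B and mast cells than in macrophages. It was also fitted without the 3 macrophage subclusters led by B cell genes, led by T cell genes or with granulocyte and epithelial markers raised (none was set aside for mast cell genes): its log2 fold change was then -0.91 with an edgeR adjusted p of 0.0216. Casp8 (-0.82), Parp1 (-0.64) and Mcl1 (0.89) also passed edgeR's test there, with adjusted p of 0.0360, 0.0491 and 0.0464.

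The macrophages of the groups fell in part into different subclusters. A subcluster led by Saa1, Mt2 and Cxcl3, acute-phase, metallothionein and chemokine genes, held 2108 and 1920 cells of the siFXR1-LNA libraries and 0 and 1 of siCont. One led by Ace, Nr1h3 and Slfn4 held 1036 and 714 cells of siCont and 0 and 1 of siFXR1-LNA. The first had 44.3 and 51.2 CPM of Casp8, 13.2 and 8.74 of Bcl2, 24.1 and 27.2 of Parp1 and 592.1 and 698.8 of Mcl1. The second had 124.7 and 138.4 of Casp8, 42.9 and 45.6 of Bcl2, 53.1 and 41.5 of Parp1 and 359.6 and 413.7 of Mcl1. These values stand in the order of the group difference of the whole type, and how much of that difference comes from the change of subclusters was not tested.

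Within the 4 subclusters that had at least 10 cells in every library, no member that was tested passed edgeR's test. Bbc3 had too few UMIs for a test in the one led by Birc5. Members at an unadjusted p under 0.05 numbered 1, 0, 1 and 3. Here and below, genes at that unadjusted threshold were not counted over all genes. The background there was also small: 0.00872% of genes passed in the subcluster led by Lyve1, 0.00979% in that led by Ear2, 0.0526% in that led by Serpinb2 and 4.44% in the cycling one led by Birc5. Bcl2 had log2 fold changes of -0.86, -0.51, 0.56 and -1.28 in these 4, with edgeR adjusted p from 0.0864 to 0.710. In the Serpinb2 subcluster, where the direction turned, Bcl2 stood at 28.4 and 9.74 in siCont and 31.2 and 28.7 in siFXR1-LNA. Casp8 had -0.52, -0.30, -0.10 and -0.82, Parp1 -0.03, -0.56, -0.10 and -0.28, and Mcl1 0.19, 0.09, 0.34 and 0.68. In size, only the cycling subcluster came near the whole type for Casp8, Bcl2 and Mcl1, with 245, 157, 25 and 46 cells. Fewer cells also went into each of these fits than into that of the whole type.

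**Figure D3:**
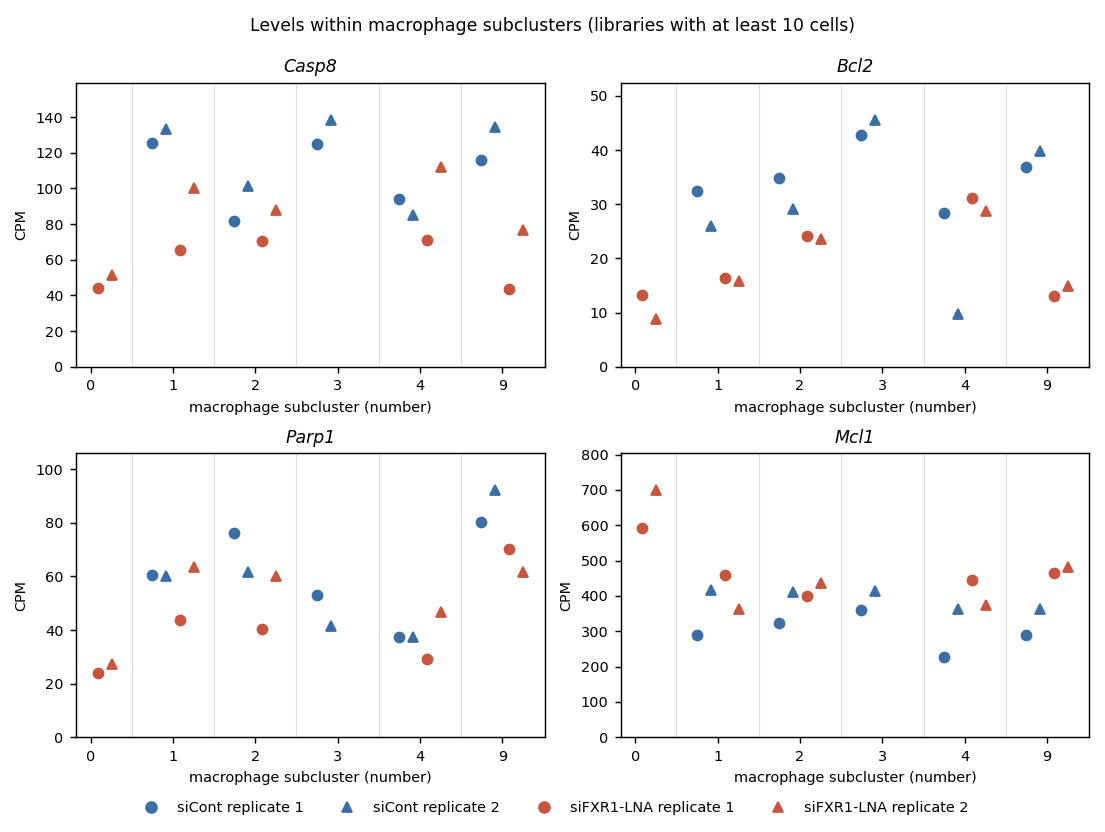
Panels plot Casp8, Bcl2, Parp1 and Mcl1 in CPM (linear axis from 0) against the number of the macrophage subcluster, with 1 point a library where it had at least 10 cells (blue siCont, red siFXR1-LNA). Subcluster 0 (Saa1, Mt2, Cxcl3) has red points alone and subcluster 3 (Ace, Nr1h3, Slfn4) blue points alone, and in subclusters 1 (Lyve1), 2 (Ear2), 4 (Serpinb2) and 9 (Birc5) both groups are present. In subcluster 9 the groups lie apart for each gene shown. They also lie apart for Casp8 in 1, Parp1 in 2, Mcl1 in 4 and Bcl2 in 1, 2 and 4. Genes lying apart within subclusters were not counted over all genes.

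Casp8 was also lower in DCs. It measured 79.3 and 99.6 CPM in siCont and 36.3 and 33.9 in siFXR1-LNA, a log2 fold change of -1.42 ± 0.24 with an edgeR adjusted p of 0.0281. This made 1 of 9 members, against 3.42% of the 10764 genes tested in DCs. The DCs of siCont included 478 and 295 cells of a subcluster led by Mgl2 and Cd209a, of which siFXR1-LNA had 0, whereas a subcluster led by Xcr1 was found in all libraries. With a finer clustering (resolution 0.3) that left 447, 194, 76 and 68 DCs, where a cluster with Cd209a and Mgl2 among its leading genes was named mature migratory DC instead, the log2 fold change of Casp8 was -0.54 and its edgeR adjusted p 0.465. Without siFXR1-LNA replicate 1 or 2 the adjusted p was 0.102 and 0.115, at log2 fold changes of -1.45 and -1.36.

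No other member passed in DCs. Bcl2l1 stood at 15.3 and 14.3 in siCont and 28.2 and 36.5 in siFXR1-LNA, a log2 fold change of 1.09 ± 0.27 with an edgeR adjusted p of 0.0789. Bax was at 185.9 and 176.6 against 143.0 and 125.2 (-0.50 ± 0.18, edgeR adjusted p 0.186), and Casp4 at 13.4 and 18.2 against 8.06 and 9.13. In all, 7 of the 9 members did not overlap between the groups in DCs (Casp1, Casp4, Casp8, Bax and Parp1 lower, Bcl2l1 and Mcl1 higher in siFXR1-LNA), against 53.2% of all genes tested. Mcl1, at 359.8 and 413.7 against 422.9 and 418.8, had a log2 fold change of 0.06 ± 0.17.

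In mature migratory DCs, which switch on Ccr7 and leave for lymph nodes, edgeR called none of the 9 members, against 3.05% of 7814 genes. DESeq2, which called 207 genes there, called none of the 9 either, and 3 had an unadjusted edgeR p under 0.05. Bcl2 was at 32.9 and 29.0 in siCont and 2.98 and 15.3 in siFXR1-LNA, at a log2 fold change of -1.60 ± 0.50 (edgeR adjusted p 0.137). Without siFXR1-LNA replicate 2 and without siCont replicate 2 it passed, at log2 fold changes of -3.46 and -1.68 (edgeR adjusted p 0.0161 and 0.0431). Casp8, lower in the other DCs, was at 48.3 and 39.7 against 29.8 and 54.9 here and overlapped.

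Granulocytes had a single call, for Bbc3. It rested on 4 and 3 UMIs in the siCont libraries, or 5.19 and 1.71 CPM, and on 205 and 252 UMIs in siFXR1-LNA, or 17.9 and 21.7 CPM. The log2 fold change was 2.51 ± 0.57 with an edgeR adjusted p of 0.0385, and 1 of 9 members compares with 3.70% of the 12317 genes tested. Without siCont replicate 2 the adjusted p was 0.0803, and without siFXR1-LNA replicate 1 or 2 it was 0.0869 and 0.159, at log2 fold changes of 1.87, 2.61 and 2.31. The call was also lost with no filter on low counts (adjusted p 0.310, where no gene passed), with at least 500 genes per cell (0.0535), without the highest Scrublet scores (0.0550) and without subclusters of other types (0.0703), and without cells with markers of another type Bbc3 had too few UMIs to be tested.

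The granulocytes of the groups fell into different subclusters. The siCont granulocytes were nearly all in a subcluster of 424 and 856 cells with 19 and 264 in siFXR1-LNA, whose leading genes included Mcpt4, Cma1 and Cpa3, mast cell genes. In it Bbc3 had 4 and 3 UMIs against 0 and 8. The largest siFXR1-LNA subclusters, led by Cxcl3 and Ccrl2 and by Sprr1a and Sema3d, held 1168 and 3755 and 3804 and 561 cells, with Bbc3 at 15.4 to 23.4 and 13.6 to 20.2 CPM. The one led by Sprr1a, which holds most granulocytes of siFXR1-LNA replicate 1, raised 3 of the 5 mesothelial markers over the other granulocyte subclusters. Its 7 granulocyte markers summed to 16872 and 13967 CPM in siFXR1-LNA, against 52319 and 44714 in that led by Cxcl3. Setting it aside with the subclusters of other types left 1187 of the 5470 granulocytes of that library. The subcluster led by Camp and Ltf, which raised T and B cell markers over the other granulocyte subclusters, was also set aside. Its 7 granulocyte markers summed to 122288 and 162315 CPM in siFXR1-LNA, while the subcluster led by Mcpt4 stayed in. Of the 7 mast cell markers 6 were lower in the granulocytes labelled siFXR1-LNA (1856.5 and 865.1 CPM together in siCont, 103.2 and 131.1 in siFXR1-LNA), and the part of this in the Bbc3 difference was not tested. With total UMIs in place of TMM the share of granulocyte calls that were higher was 49.6% instead of 30.5%, and Bbc3 had a log2 fold change of 2.76 (edgeR adjusted p 0.0349). Mcl1 in granulocytes split by replicate number rather than by group, at 478.7 and 792.8 in siCont and 515.9 and 791.7 in siFXR1-LNA.

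The epithelial cells, the cluster in which the tumor cells would lie, gave no call among the 9 genes by edgeR or by DESeq2. Over all genes there, edgeR called 7.87% of the 13117 tested and DESeq2 called 865. At an unadjusted p under 0.05 there were 4 members, a threshold not counted over all genes. Casp8 came nearest, at 66.1 and 68.2 CPM in siCont and 34.6 and 39.0 in siFXR1-LNA (log2 fold change -0.84 ± 0.23, edgeR adjusted p 0.0528). It passed with no TMM, no filter on low counts and the replicate block (edgeR adjusted p 0.0478, 0.0384 and 0.0454), and under no other alternative fitted on all libraries. Over all genes these settings called 1014, 1950 and 1634. Bcl2 was at 250.9 and 280.6 against 164.3 and 147.7 (-0.74 ± 0.24, edgeR adjusted p 0.0958). Both genes kept the groups apart, as did 52.9% of all genes tested in epithelial cells, and pointed the way they did in macrophages.

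The inflammatory caspases of the epithelial cells pointed in opposite directions. Casp1 had 79 UMIs over the 4 libraries, at 6.99 and 11.5 against 1.80 and 3.46 (-1.78 ± 0.56, edgeR adjusted p 0.0825). It passed with no filter on low counts and with the replicate block (edgeR adjusted p 0.0332 and 0.0231), and under no other alternative fitted on all libraries. Casp4 was at 21.5 and 20.2 against 33.5 and 33.3 (0.70 ± 0.26, edgeR adjusted p 0.129). The survival gene Bcl2l1 overlapped at 119.8 and 167.2 against 148.6 and 132.0, and so did Parp1 at 83.0 and 56.7 against 37.8 and 61.3 and Bbc3 at 8.74 and 13.5 against 9.88 and 6.60. Granulocyte markers, at 98.6 and 159.5 CPM together in siCont and 1268.2 and 865.0 in siFXR1-LNA, were higher for 5 of 7 genes in these cells. B cell markers were lower for 4 of 6.

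Bcl2 varied widely among epithelial subclusters. A subcluster of 488 and 74 siCont cells and 7 and 14 siFXR1-LNA cells had 375.2, 433.1, 266.8 and 214.4 CPM of Bcl2. One led by Hrk, with 3 and 1 siCont cells and 818 and 25 siFXR1-LNA cells, had 203.0 and 266.2 in siFXR1-LNA. In the subcluster with the most keratin markers, led by Fxyd3 and Lgals2 and present with 173, 26, 80 and 66 cells, Bcl2 stood at 58.7 and 35.6 in siCont and 56.7 and 33.9 in siFXR1-LNA, and Casp8 at 51.6 and 39.6 against 30.4 and 26.4. The groups overlapped there for Bcl2 but not for Casp8. Genes lying apart were not counted over all genes in that subcluster, and in the epithelial cells as a whole 52.9% of genes did.

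Lymphocytes gave no call in the main fits. Neither edgeR nor DESeq2 called any of the 9 in T cells. There edgeR called 0.475% of 12219 genes and DESeq2 called 398. At an unadjusted p under 0.05 there were 2 members, a threshold not counted over all genes. Casp1 was at 30.9 and 32.8 in siCont and 6.61 and 22.5 in siFXR1-LNA (log2 fold change -1.29 ± 0.47, edgeR adjusted p 0.350). It passed with no filter on low counts, with the replicate block and without cells with markers of another type, and under no other alternative fitted on all libraries. Bcl2 overlapped, with siCont replicate 1 the lowest library of the 4. Bbc3 was at 12.3 and 13.4 in siCont and 26.9 and 27.8 in siFXR1-LNA (log2 fold change 0.92 ± 0.26, edgeR adjusted p 0.238). The T cells of the groups also fell into different subclusters: the one with most T cell markers raised held 1482 and 982 cells of siCont and 4 and 38 of siFXR1-LNA. One led by Ccn2 and Vldlr held 2 and 7 against 732 and 512. Its 7 T cell markers summed to 830.9 and 1590.8 CPM in siFXR1-LNA, against 1782.2 and 2560.9 in the siCont libraries of the former, and it had Bbc3 at 28.6 and 30.1 in siFXR1-LNA. Without it and the subcluster led by granulocyte genes, which left 274 of 1070 and 699 of 1302 siFXR1-LNA cells, the log2 fold change of Bbc3 in T cells was 0.50 (edgeR adjusted p 0.610).

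In B cells Bbc3 was at 4.80 and 4.86 in siCont and 11.1 and 10.7 in siFXR1-LNA (0.98 ± 0.35, edgeR adjusted p 0.303). Bcl2l1 was at 16.4 and 19.3 against 49.9 and 28.9 (0.96 ± 0.34, edgeR adjusted p 0.299). Casp8 was at 63.9 and 66.8 against 46.9 and 60.0 (-0.49 ± 0.22), again without overlap, as for 51% of all genes tested in B cells. Neither tool called a member in B cells, where edgeR called 0.0883% of 12458 genes and DESeq2 called 453. At an unadjusted p under 0.05 there were 2, a threshold not counted over all genes. B cells numbered 3631 and 2516 in siCont and 882 and 651 in siFXR1-LNA, so the siFXR1-LNA values rest on fewer UMIs.

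Mast cells, the smallest of the tested types, had enough UMIs for 1 of the 9 genes. Bcl2 was at 204.4 and 173.6 in siCont and 83.2 and 378.1 in siFXR1-LNA. Neither edgeR nor DESeq2 called it (edgeR unadjusted p 0.75), beside 2.63% of 1447 genes by edgeR and 26 genes by DESeq2. The siFXR1-LNA libraries stood on both sides of siCont.

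Whether a difference between groups itself differed between cell types was tested in a single fit over the 8 types with the library as a block. For Bbc3 it did, with an edgeR adjusted p of 0.0034, against 6.75% of 14836 genes that passed, and no other member passed. Its log2 fold changes ran from -0.66 in mature migratory DCs and -0.26 in epithelial cells to 0.98 in B cells and 2.51 in granulocytes. The contrast of epithelial cells with macrophages passed for none of the 9, against 2.80% of genes by edgeR, and at an unadjusted p under 0.05 for 0. For Casp8 that contrast was -0.02 ± 0.26 and for Mcl1 -0.65 ± 0.34. Without either of the libraries labelled siFXR1-LNA Bbc3 no longer passed this test, and which members passed changed with the library left out. Without subclusters of other types Bbc3 (edgeR adjusted p 0.0106) and Mcl1 (0.0387) passed, beside 1228 of all 14180 genes tested in that fit.

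The other genes of these pathways were taken from 7 lists of 60 genes. In macrophages 57 could be tested, of which 9 were higher and 9 lower in siFXR1-LNA, beside 9.23% and 9.63% of all genes, with a median log2 fold change of -0.13 against 0.0013 for all genes. Of the 9 that rose 3 are inflammasome genes. Il1b, the interleukin-1 beta gene, was at 25.8 and 45.7 CPM in siCont and 105.0 and 147.4 in siFXR1-LNA (log2 fold change 2.02 ± 0.33, edgeR adjusted p 0.0202). Nlrp3, the sensor that activates caspase-1, was at 14.1 and 21.5 against 40.3 and 41.2 (1.40 ± 0.23, edgeR adjusted p 0.0209). Mefv, which encodes pyrin, was at 7.97 and 7.32 against 17.8 and 22.3 (1.59 ± 0.17, edgeR adjusted p 0.0087).

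The same list held genes that fell. Of the 14 inflammasome genes 3 rose and 2 fell, the latter being Nlrp1b and Aim2, the cytosolic DNA sensor, at 59.6 and 69.8 against 32.8 and 36.1. Nlrp1b has close paralogs, and its counts are uncertain for that reason. Of the 9 genes of the PARP family and of DNA fragmentation 3 fell and 1 rose, with a list median of -0.49. Parp14, an interferon-induced member, was at 153.7 and 150.6 in siCont and 31.9 and 53.7 in siFXR1-LNA (log2 fold change -1.63 ± 0.25, edgeR adjusted p 0.0172), and Parp2 and Parp9 fell with it.

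Of the 8 genes of the apoptosome and its inhibitors, Birc3 rose and Birc5 and Cycs fell. Birc3 encodes the ubiquitin ligase cIAP2 and was at 56.9 and 61.3 against 141.8 and 135.3 (1.43 ± 0.12, edgeR adjusted p 0.0066). Birc5, which encodes survivin and is expressed in dividing cells, was at 32.8 and 41.7 against 7.25 and 7.49 (-2.14 ± 0.18, edgeR adjusted p 0.0061), and it also leads the cycling subcluster. Of the 8 tested BH3-only and other pro-death relatives of BAX, Bmf and Bcl2l11, which encodes BIM, rose and none fell. Bcl2a1d, of a cluster of near-identical copies that short reads can confuse, was the 1 survival relative that fell. Cflar, the caspase-8 inhibitor next to Casp8 in the genome, rose from 79.7 and 81.7 to 129.8 and 122.3, and Mlkl, the effector of necroptosis, fell. Of the executioner and other apoptotic caspases Casp6 rose.

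**Figure D4:**
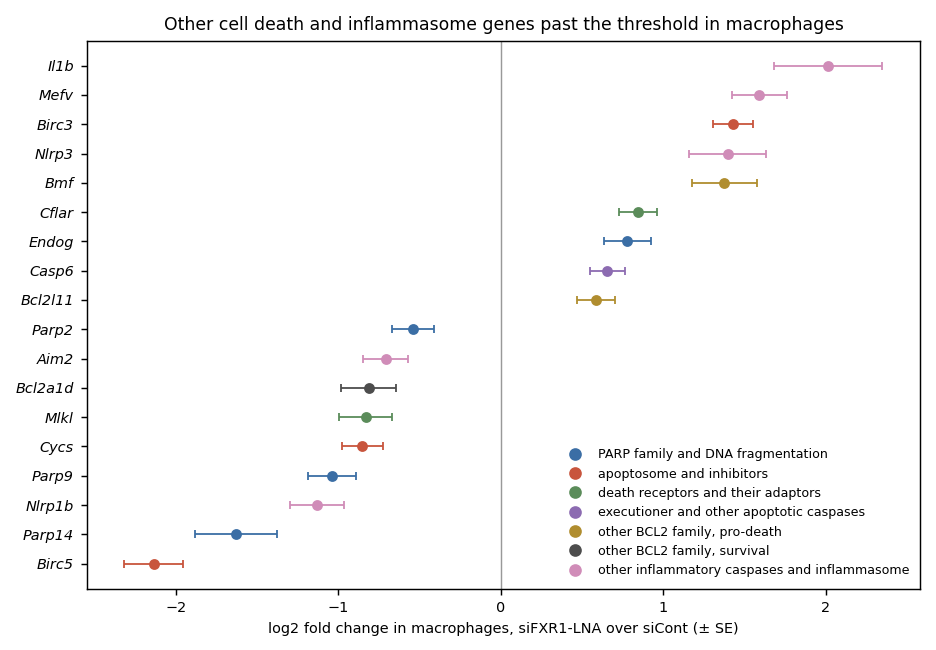
Points are the 18 listed genes other than the 9 members that passed edgeR's test in macrophages, with their log2 fold change of siFXR1-LNA over siCont and bars of ± 1 SE, colored by list. They run from Birc5 at -2.14 to Il1b at 2.02, and inflammasome genes stand on both sides of 0.

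Outside macrophages few of these 60 genes passed. In epithelial cells Il1b was at 1.75 and 3.84 in siCont and 30.5 and 34.6 in siFXR1-LNA (log2 fold change 3.92 ± 0.41, edgeR adjusted p 8.2e-04), beside the granulocyte markers that were higher in the same cells. Hrk, a BH3-only gene, was at 0.699 and 1.92 against 36.9 and 3.46 (4.58 ± 1.13, edgeR adjusted p 0.0352), most of it in the subcluster it leads in siFXR1-LNA replicate 1. Birc5 fell there too (-2.25 ± 0.45), as it did in granulocytes (-1.86 ± 0.46) with Nlrp1b (-2.84 ± 0.53) and Gsdme (-2.38 ± 0.52), which encodes gasdermin E. In DCs Parp14 fell (-2.08 ± 0.27, edgeR adjusted p 0.0104). None passed in B cells, T cells, mast cells or mature migratory DCs by edgeR.

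Over 41 pairs of cell type and library, the genes whose pattern was most like each member were found among 6620 genes by Pearson's r of log2(CPM + 1). Casp8 had the closest companions, Rap1gds1 (r = 0.95), U2af2 (0.94) and Itsn2 (0.94). Casp1 was most like Il21r (0.91), Ifi35 (0.87) and Gm12185 (0.87), and Casp4 most like Socs3 (0.88), Zdhhc17 (0.86) and Casc3 (0.86). Bcl2 was most like Ppp3cc (0.90), Gmds (0.88) and Smyd3 (0.86), Mcl1 like Sat1 (0.86), Slfn2 (0.84) and Zc3h7a (0.83), and Bcl2l1, with weaker likeness, like Azin1 (0.77), Prnp (0.73) and Rassf8 (0.72).

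Bax was most like Tmem14c (0.87), Clta (0.83) and Tbca (0.82), Parp1 like Trap1 (0.86) and Gtf2f1 (0.76), and Bbc3 like Cherp (0.75), Sh3bp1 (0.74) and Ptcd2 (0.74). Among the members themselves the highest r was 0.71, between Casp8 and Bcl2, and the lowest -0.42, between Casp1 and Bcl2l1. The pairs share libraries, depth and cell types, so these values are descriptions only.

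Types too small, uneven or unnamed were left untested, and their levels are given as they stand. Erythrocytes had, in siCont, 31.1 and 57.1 CPM of Bcl2l1, the survival gene red cell precursors depend on, and 54.7 and 24.8 of Mcl1. Hemoglobin took 57.3% and 78.9% of their UMIs in these libraries, which lowers such levels. With hemoglobin left out of the denominator Bcl2l1 was at 72.8 and 270.3 and Mcl1 at 128.3 and 117.6. The unnamed cluster had 49.9 and 40.6 of Bcl2l1, 125.9 and 112.5 of Mcl1 and 18.9 and 11.9 of Bcl2 in the siFXR1-LNA libraries, where it held 41040 and 5428 cells. In these libraries hemoglobin took 14.8% and 44.6% of the cluster's UMIs. NK cells numbered 74, 54, 4 and 10 and had 154.1 and 502.2 of Bcl2 and 105.4 and 114.1 of Casp8 in siCont.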

How the data were processed

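Single-cell 3' RNA-seq of mouse ascites was analysed from the matrices of UMI counts that the authors deposited, made per the labels' processing notes with Cell Ranger 7.0.0 on mm10. Whether reads in introns were counted is not given in the sources used here. A cell was kept if it had 100 to 4800 genes and mitochondrial UMIs were at most 15% of its total, and cells were clustered in Seurat 5.3.0 (R 4.3.3; 2000 variable genes, 50 principal components, Louvain resolution 0.1, no integration), with a second clustering at 0.2. Clusters were named from marker lists where at least 3 markers were raised. The epithelial name also needed more than 0.5 of the epithelial and mesothelial markers together. Further rules on hemoglobin, depth and leading genes applied. The naming thresholds and the subclusters set aside as other types were chosen after the clusters were seen.

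Counts were summed per type and library and tested with edgeR 4.0.16 (quasi-likelihood, TMM, filterByExpr) over all genes, with Benjamini-Hochberg adjustment and a threshold of 0.05, for named types with at least 10 cells in every library, erythrocytes apart. The labels name 2 libraries a group and no separate animals, so p-values measure the spread between libraries, which may be technical. The 9 genes and the pathway lists were chosen with earlier results of these data known. All members were named and, per type, up to 6 other listed genes with the largest change among those past the threshold, plus the 3 genes most like each member with a mean of at least 20 CPM. Listed genes named beyond these were chosen after their values were seen. Some results that this rule would name are not reported here.

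Doublets were not removed in the main result, since Scrublet (scanpy 1.11.5) called 1 cell, and the top 5% of scores was left out as an alternative. Other alternatives were DESeq2 1.42.0, no TMM, no filter on low counts, a replicate block, at least 500 genes or at most 10% mitochondrial UMIs per cell, resolution 0.3, removal of cells with 2 or more UMIs of another type's markers, and leaving out each library. Fits without subclusters of other types and within single macrophage subclusters were chosen after seeing the data. On simulated counts for macrophages, with 200 of 14710 genes changed, the test recovered 85% of 4-fold and 18% of 2-fold changes, and for T cells 33% and 2%. All genes of a type were given the same dispersion there. In macrophages fewer genes were changed than the 2774 called in the data, so these shares hold for the simulated setting. Gene coordinates are from GENCODE on GRCm38. Promoters are from RefSeq, where all 9 genes matched.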

Additional observations from a re-analysis of the deposited data

Results flagged for a closer look

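Bbc3 stood out because its difference between the groups was not the same in every cell type, by the test of group and type together (edgeR adjusted p 0.0034, 4 libraries). In granulocytes it was at 5.19 and 1.71 CPM in siCont and 17.9 and 21.7 in the libraries labelled siFXR1-LNA. It was at 4.80 and 4.86 against 11.1 and 10.7 in B cells and at 12.3 and 13.4 against 26.9 and 27.8 in T cells, higher in both siFXR1-LNA libraries each time. In mature migratory DCs it was at 27.6 and 38.9 against 17.9 and 24.4, and in macrophages at 11.6 and 14.4 against 9.32 and 11.3, lower in both. Of all genes tested, 50.8% kept the groups apart in granulocytes, 51% in B cells and 47.2% in T cells. The share was 49.4% in mature migratory DCs and 70.4% in macrophages. Without siFXR1-LNA replicate 1 or replicate 2 the test passed for no member, and without subclusters of other types it passed for Bbc3 at an edgeR adjusted p of 0.0106. The granulocytes and T cells of the groups lie largely in different subclusters, and without those of other types the log2 fold change of Bbc3 was 2.28 in granulocytes (edgeR adjusted p 0.0703) and 0.50 in T cells (0.610).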

How the results depend on the processing

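Of the log2 fold changes of single genes under an alternative, 763 kept their direction and their side of the threshold, 53 turned direction, 24 crossed into it and 38 out of it. In macrophages Casp8, Bcl2 and Parp1 passed under all 10 alternatives fitted on all libraries and Mcl1 under 9. Counts of members called moved with no filter on low counts (B cells 1, DCs 2, epithelial cells 2, granulocytes 0, mature migratory DCs 1, T cells 1, macrophages 6), with DESeq2 (macrophages 6), with no TMM (epithelial cells 1, macrophages 3), at resolution 0.3 (DCs 0), without cells with markers of another type (T cells 1, granulocytes 0), in granulocytes (0) with at least 500 genes per cell, without the highest Scrublet scores and without subclusters of other types, and within each macrophage subcluster (0). Calls over all genes moved as well. With no filter, 1103 of 20336 genes passed in B cells, 1263 of 18294 in DCs and 1950 of 21590 in epithelial cells. It was 678 of 16870 in mature migratory DCs, 1059 of 20340 in T cells and 3856 of 22660 in macrophages. With no TMM 1014 passed in epithelial cells and 3628 in macrophages, where DESeq2 called 3498. Without cells with markers of another type 66 of 8896 passed in T cells. The replicate numbers are not said to mark a shared batch, and the deviations of same-numbered libraries correlated at 0.013 to 0.37. With the replicate block, the count was 2 in epithelial cells (Casp1, Casp8), 1 in T cells (Casp1), 1 in mature migratory DCs (Bcl2) and 6 in macrophages (Casp1 and Bcl2l1 added), where the share of all genes called rose too, to 12.5% in epithelial, 7.68% in T cell, 9.89% in mature migratory DC and 27.7% in macrophage sums. Leaving out a library gave 0 to 3 members in macrophages, 0 to 1 in DCs, 0 to 2 in granulocytes, 0 to 2 in epithelial cells, 0 to 1 in mature migratory DCs and 0 to 3 for the test across types (2 without subclusters of other types, Bbc3 and Mcl1), and the lone library of a group is then assumed to vary like the others.

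Log2 fold changes that turned direction did not pass there. With no TMM they were Casp4 0.15 and Bcl2 0.0034 in B cells, Bcl2l1 -0.014 in epithelial cells, Mcl1 0.038 in granulocytes, Bcl2 0.51 in mast cells, Casp1 0.078 and Casp8 0.016 in mature migratory DCs, and Casp4 0.099 and Bcl2 0.16 in T cells. Without subclusters of other types they were Bcl2l1 -0.077 in epithelial cells and Casp4 0.079, Bcl2 0.23 and Mcl1 -0.47 in T cells. Without cells with markers of another type they were Bbc3 0.27 in epithelial cells, Casp4 8.4e-04 in macrophages, Casp1 0.060 in mature migratory DCs and Bcl2 0.13 in T cells. With the replicate block they were Casp4 0.0066 in macrophages and Bcl2 0.13 in T cells, with at least 500 genes Casp4 0.0077 in macrophages and Bcl2 0.074 in mast cells, at resolution 0.3 Bax -0.29 in mature migratory DCs and Bcl2 0.037 in T cells, without the highest Scrublet scores Bcl2 0.019 in T cells, and within macrophage subcluster 4 Bcl2 0.56. Leaving out a library turned Casp4 (-0.12 to 0.015) and Bcl2 (-0.47 to 0.024) in B cells, Mcl1 (-0.053 to 0.18) and Bbc3 (-0.13 to 0.60) in DCs, and Bcl2l1 (-0.29 to 0.31) and Bbc3 (-0.70 to 0.037) in epithelial cells. It turned Casp4 (-0.95 to 0.50), Bcl2l1 (-0.25 to 1.25) and Mcl1 (-0.61 to 0.39) in granulocytes, Casp4 (-0.23 to 0.25) and Bbc3 (-0.30 to 0.068) in macrophages and Bcl2 (-1.66 to 0.34) in mast cells. It turned Casp1 (-0.16 to 0.054), Casp8 (-0.70 to 0.22) and Bax (-0.079 to 0.30) in mature migratory DCs and Casp4 (-0.28 to 0.050), Bcl2 (-0.52 to 0.79), Bcl2l1 (-0.033 to 0.22) and Mcl1 (-0.13 to 0.33) in T cells. Over all genes, the number called and its range over the alternatives on the whole type was 11 (0 to 1184) for B cell sums, 368 (100 to 1263) for DC, 58 (28 to 1059) for T cell, 1032 (490 to 2056) for epithelial, 456 (0 to 2346) for granulocyte, 2774 (9 to 4074) for macrophage, 38 (3 to 88) for mast cell and 238 (207 to 773) for mature migratory DC sums, and the lowest macrophage count is that without siFXR1-LNA replicate 1. The causes were not tested. Leaving hemoglobin out of the denominator moved 50 of 144 levels by more than 1 SD.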
